A study of Mus musculus with 8 samples.

Results

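The 10 genes described here encode the coat of the lipid droplet, the factors that enlarge droplets, and the core of the enzyme system that breaks droplet fat down. They were chosen by symbol from the 20894 genes of the table: the perilipins Plin2, Plin3, Plin4 and Plin5, the CIDE genes Cidea, Cideb and Cidec, the lipase gene Pnpla2, its coactivator Abhd5 and its inhibitor G0s2. All 10 were found, and 9 of them had enough counts to be tested. RNA came from the livers of wild-type mice killed after a daytime fast, all of which carried an AAV8 vector, a virus that enters liver cells efficiently, with a transgene behind the hepatocyte promoter TBG. In 4 libraries the transgene was POLR2G, a subunit of RNA polymerase II, and in 4 it was green fluorescent protein (GFP), the control. The sources used here do not state age, sex, strain, vector dose or the time since injection. No label links a library to an animal, and p-values therefore reflect the spread between these libraries, which may be technical. The comparison asks how the fasted liver transcriptome differs when hepatocytes carry added POLR2G.

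Liver cells store triglyceride in droplets bounded by a single phospholipid layer, on which perilipins sit and limit the access of lipases. Breakdown starts with adipose triglyceride lipase (ATGL), the product of Pnpla2, which ABHD5 activates and G0S2 inhibits. In fasting, fatty acids from adipose tissue enter the liver, droplets accumulate, and the nuclear receptor PPARA, which binds fatty acids released from them, raises many droplet genes.

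In the POLR2G libraries the lowest relative levels among these genes belonged to Plin4 (2.33-fold lower) and to the ATGL inhibitor gene G0s2 (1.94-fold lower). All 4 POLR2G libraries lay below all 4 GFP control libraries for both, a separation seen in 2.68% of all genes tested. Means of Plin5 and Cidec were lower as well, with overlapping libraries, while Pnpla2, Abhd5, Cideb and Plin3 had means within 10% of the controls. Plin2 and Cidea had too few counts for a comparison of use. None of the 9 tested genes passed over all 10390 genes (edgeR quasi-likelihood test, Benjamini-Hochberg adjusted p under 0.05), a rule that called 0.0385% of all genes.

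The promoters of the 4 genes with the largest differences, and of the lipase gene for contrast, are shown so that their sequences can be set side by side. They are from RefSeq on GRCm38.p6, which held 11 windows (250 bases before to 50 after a start) for 9 of the 10 genes. Printed are the bases upstream of every start that GENCODE M21 annotates for the gene, 5′ to 3′ on the gene's strand. Capitals mark matches, on either strand, to the nuclear receptor half-site AGGTCA, the CCAAT box CCAAT, the GC box GGGCGG, the TATA box TATAAA, or the PPAR-type direct repeat DR1, a tandem pair of half-sites with 1 base between them. The printed stretches of Plin4, G0s2 and Cidec hold no match.
Plin4 promoter, chr17:56109804-56110032, minus strand: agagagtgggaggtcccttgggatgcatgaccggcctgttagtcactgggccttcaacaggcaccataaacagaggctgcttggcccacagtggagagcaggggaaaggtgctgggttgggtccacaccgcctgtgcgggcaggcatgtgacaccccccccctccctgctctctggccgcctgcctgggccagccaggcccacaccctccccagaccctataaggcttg
G0s2 promoter, chr1:193273218-193273438, minus strand: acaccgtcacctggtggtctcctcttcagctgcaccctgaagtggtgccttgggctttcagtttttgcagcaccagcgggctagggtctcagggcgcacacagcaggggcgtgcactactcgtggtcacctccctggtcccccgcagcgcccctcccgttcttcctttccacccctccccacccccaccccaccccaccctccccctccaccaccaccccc
Cidec promoter, chr6:113435761-113436010, minus strand: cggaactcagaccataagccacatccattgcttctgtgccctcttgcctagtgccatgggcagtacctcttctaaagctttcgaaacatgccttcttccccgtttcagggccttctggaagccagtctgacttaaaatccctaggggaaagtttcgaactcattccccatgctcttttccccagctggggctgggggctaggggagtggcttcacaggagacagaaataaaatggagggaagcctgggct
Plin5 promoter, chr17:56117597-56117798, minus strand: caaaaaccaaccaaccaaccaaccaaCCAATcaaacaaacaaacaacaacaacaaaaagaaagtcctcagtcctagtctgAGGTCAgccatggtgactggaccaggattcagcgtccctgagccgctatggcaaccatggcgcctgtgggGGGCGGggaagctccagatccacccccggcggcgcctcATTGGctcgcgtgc
Pnpla2 promoter, chr7:141454938-141455187, plus strand: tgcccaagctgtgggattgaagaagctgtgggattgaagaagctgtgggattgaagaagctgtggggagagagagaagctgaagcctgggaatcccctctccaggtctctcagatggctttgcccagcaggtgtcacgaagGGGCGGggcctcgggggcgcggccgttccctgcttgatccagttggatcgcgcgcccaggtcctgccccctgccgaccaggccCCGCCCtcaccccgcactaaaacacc
No window of the 9 genes held a DR1, which occurs in 0.0396% of 32851 RefSeq windows of this length. The half-site was found in 4 of the 11 windows, belonging to Plin2, Plin5 and Abhd5, and occurs in 16.3% of all windows. GC boxes were found in 8 windows (35.7% of all), CCAAT boxes in 4 (37.4%), 1 for each of the 4 perilipin genes, and a TATA box in 1, that of Cideb (13.6%). In the windows of Plin4 and G0s2 the single matches lay in the bases nearest the start, which are not printed: a CCAAT box from -18 to -14 for Plin4 and a GC box from -18 to -13 for G0s2, counted from the start. Matches are letters in a window and do not show a bound site.

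Values below are CPM, the counts of a gene per 1e6 counts of its library after TMM scaling, as mean ± SD over 4 libraries, and log2 fold changes, each with a standard error (SE), are negative where the POLR2G libraries are lower. The control libraries held 14159056 to 18865284 estimated counts in all and the POLR2G libraries 16362899 to 22165491, so that 1 CPM stood for 15.5 to 20.7 counts. One POLR2G column carries a number the labels do not list and is called the unnumbered POLR2G library. Polr2g measured 13.7 ± 1.002 CPM in the controls and 2410 ± 153 CPM in the POLR2G libraries, and every library matched its group's label. Of 7 hepatocyte markers in the table, all were detected and together they measured 120508 to 143464 CPM in the control and 114088 to 127703 CPM in the POLR2G libraries. None passed (edgeR), with 1, Ttr, lower at an unadjusted p under 0.05. Some genes that liver expresses strongly have almost no counts in this table, Actb 0 to 29 and Rpl3 0 to 3 in a library. Whether gene values cover all transcripts of a gene was not tested, and genes with several coding transcripts are marked below.

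PLIN4 coats nascent and small droplets, mainly in adipose tissue and muscle. Plin4 (ENSMUSG00000002831; GRCm38 chromosome 17, 56100591 to 56109803, minus strand; 2 coding transcripts in GENCODE M21) measured 14.3, 19.8, 30.7 and 22.1 CPM in GFP control replicates 1 to 4. POLR2G replicates 1, 3 and 4 and the unnumbered library measured 7.62, 11.6, 11.4 and 6.70 CPM. Every POLR2G library was below the lowest control, and the control values spread more widely, from 254 to 477 counts against 112 to 201. The means were 21.7 ± 6.82 and 9.34 ± 2.54 CPM (n = 4 each), a log2 fold change of −1.22 (SE 0.257, 95% interval −1.80 to −0.64, not adjusted). Its edgeR p was 0.000937, rank 48 of 10390 genes, and the adjusted p 0.203. The exact two-sided permutation p of log2 CPM was 0.0286, the smallest that 4 against 4 libraries allow. DESeq2, the other count test, called it (adjusted p = 0.00148), as it called 1.32% of the 9862 genes it adjusted over (0.619% lower in POLR2G), and no other of the 9. With DESeq2 and each library left out in turn, Plin4 passed in all 8 fits (adjusted p from 5.49e-05 to 0.0218). Plin4 overlaps the opposite-strand gene Hdgfl2 by 17 bases, and Hdgfl2 measured 27.9 ± 1.19 and 29.2 ± 3.48 CPM.

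PLIN5 holds droplets against mitochondria in cells that burn fat. Plin5 (ENSMUSG00000011305; chromosome 17, 56111601 to 56117596, minus strand; 2 coding transcripts) lies 1797 bases from Plin4 on the same strand. Its levels were 25.8, 45.7, 30.3 and 29.8 CPM in control replicates 1 to 4, against 15.1, 31.2 and 21.3 CPM in POLR2G replicates 1, 3 and 4 and 15.9 CPM in the unnumbered library. The unnumbered library and replicates 1 and 4 lay below all controls, and POLR2G replicate 3 lay above 3 of the 4 controls. Mean levels were 32.9 ± 8.76 and 20.9 ± 7.43 CPM (n = 4 each), a log2 fold change of −0.66 (SE 0.253, 95% interval −1.23 to −0.09). It did not pass (edgeR adjusted p = 0.513, exact permutation p = 0.114). GFP control replicate 2 held the highest value, and without it the log2 fold change was −0.46. Without POLR2G replicate 3 it was −0.92 (edgeR adjusted p = 0.315), and DESeq2 then called it (adjusted p = 0.0104). DESeq2 did not call Plin5 with all libraries (adjusted p = 0.294). Nor did it with any other library left out (DESeq2 adjusted p from 0.217 to 0.762).

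Plin3 (ENSMUSG00000024197; chromosome 17, 56277476 to 56292873, minus strand; 2 coding transcripts) encodes a perilipin found in the cytosol and on new droplets of most cells. Control libraries held 25.5 to 33.8 CPM and POLR2G libraries 26.3 to 38.6 CPM, which overlap. At means of 29.4 ± 4.34 and 31.9 ± 5.35 CPM the log2 fold change was 0.12 (SE 0.141), with a 95% interval from 0.870-fold to 1.35-fold. PLIN2 is the main coat protein of hepatocyte droplets. Plin2 (ENSMUSG00000028494; chromosome 4, 86648386 to 86670060, minus strand; 4 coding transcripts) had 0, 21, 16 and 30 counts in control replicates 1 to 4, and 6, 29 and 3 counts in POLR2G replicates 1, 3 and 4 with 28 in the unnumbered library. Each group holds libraries near 0 and libraries near 30 counts, so the spread within a group exceeds any difference between them. The 95% interval of its fold ran from 0.217 to 4.45, and the sign of its estimate differed among the alternatives. With 4 coding transcripts and at most 30 counts in a library, these values cannot be read as the liver's Plin2 level.

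**Figure D1:**
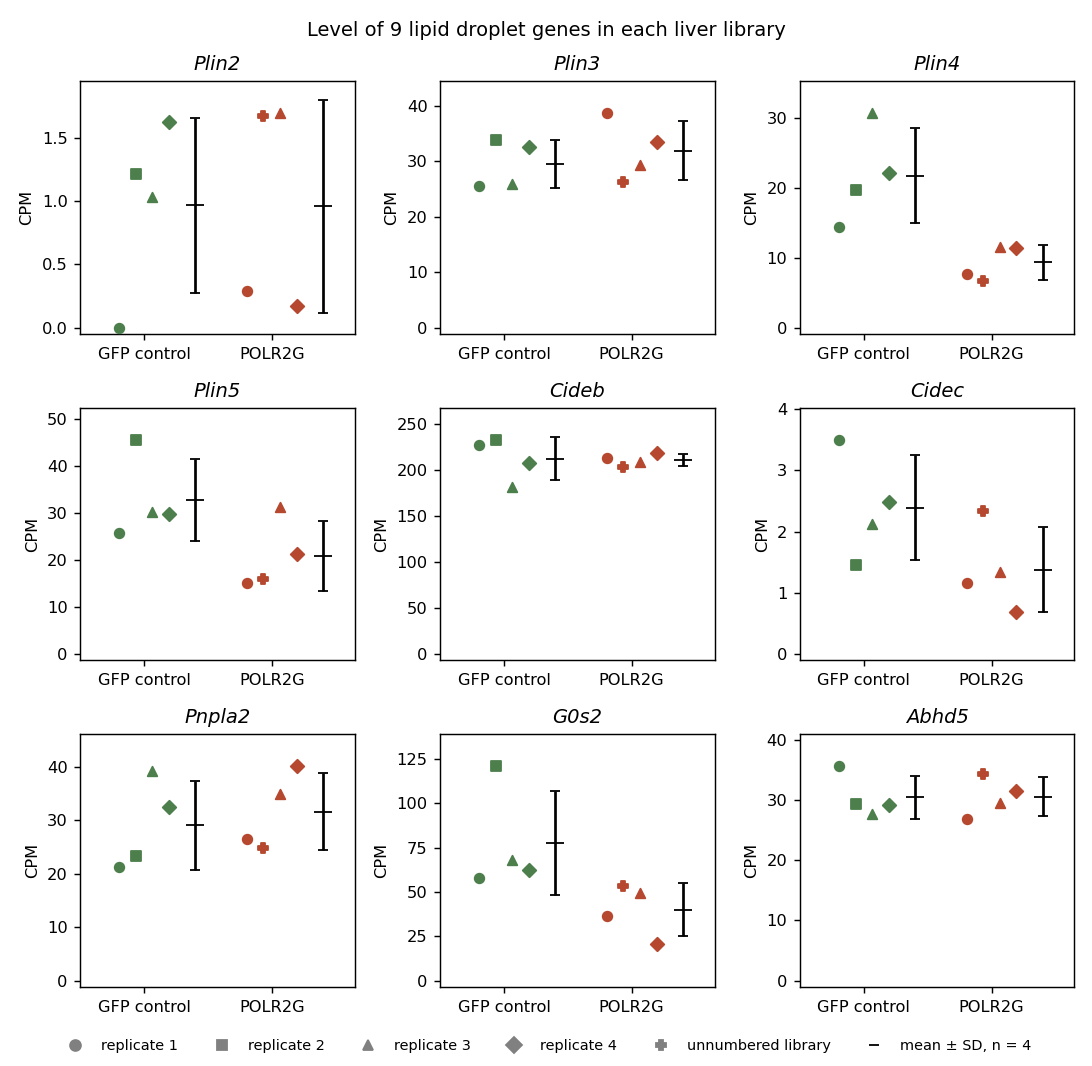
Level of the 9 tested genes in CPM (TMM-scaled, y axis, linear) in each of the 4 GFP control and 4 POLR2G libraries (x axis); symbols give the replicate, bars the mean ± SD. For Plin4 and G0s2 every POLR2G library lies below every control library, and Plin2 is scattered between 0 and 1.70 CPM in both groups.

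CIDE proteins join droplets together and load lipid onto lipoproteins. Cideb, the form that hepatocytes express and that serves the lipidation of very low density lipoprotein, had the most counts of the 10 and nearly equal means. Cideb (ENSMUSG00000022219; chromosome 14, 55754050 to 55758458, minus strand; 1 coding transcript) held 2817 to 4020 counts in the control and 3392 to 4429 in the POLR2G libraries. Its levels were 227, 233, 181 and 208 CPM in control replicates 1 to 4, and 214, 208, 219 and 203 CPM in POLR2G replicates 1, 3 and 4 and the unnumbered library. The POLR2G values all lay inside the range of the controls. At means of 212 ± 23.2 and 211 ± 6.83 CPM the fold was 0.993, with a 95% interval from 0.871 to 1.13, so a change of 1.5-fold lies outside the interval. The sign of this difference turned in 5 of 17 alternatives, among them upper quartile scaling, the replicate block and fits with 1 library left out. Nop9, on the opposite strand, overlaps 1451 bases of Cideb and measured 24.3 ± 1.74 and 27.4 ± 1.95 CPM.

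Cidec encodes the protein that fuses small droplets into large ones, abundant in white fat and raised in fatty liver. Cidec (ENSMUSG00000030278; chromosome 6, 113424634 to 113435760, minus strand; 4 coding transcripts) had few counts: 62, 25, 33 and 46 in control replicates 1 to 4, and 24, 23 and 12 in POLR2G replicates 1, 3 and 4 with 39 in the unnumbered library. The numbered POLR2G libraries lay below all controls on the CPM scale, and the unnumbered library lay within the control range. The means were 2.39 ± 0.857 and 1.38 ± 0.694 CPM (n = 4 each), a log2 fold change of −0.79 (SE 0.420, 95% interval −1.74 to 0.15). That did not pass (edgeR adjusted p = 0.672, exact permutation p = 0.114). Leaving out 1 library moved the estimate between −1.17, without the unnumbered POLR2G library, and −0.55, without GFP control replicate 1. Cidea (ENSMUSG00000024526; 1 coding transcript), the form of brown fat and of fatty liver, had 2 counts in GFP control replicate 1 and 0 in the other 7 libraries. A count of 0 allows up to 3 counts, or 0.145 to 0.193 CPM by library, for counting error only. Cidea was below the filter, and no fold is given.

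Lipolysis begins with Pnpla2 (ENSMUSG00000025509; chromosome 7, 141455198 to 141460743, plus strand; 4 coding transcripts), the ATGL gene. Its levels were 21.2, 23.2, 39.2 and 32.5 CPM in control replicates 1 to 4, and 26.5, 34.9, 40.1 and 24.8 CPM in POLR2G replicates 1, 3 and 4 and the unnumbered library. Both groups spanned nearly the same range. At means of 29.0 ± 8.34 and 31.5 ± 7.20 CPM the fold was 1.09, with a 95% interval from 0.773 to 1.53. Abhd5 (ENSMUSG00000032540; chromosome 9, 122351608 to 122381524, plus strand; 3 coding transcripts), whose protein is released from perilipins to activate ATGL, ranged over 27.6 to 35.6 CPM in the controls and 26.9 to 34.4 CPM in the POLR2G libraries. Its means were 30.4 ± 3.55 and 30.6 ± 3.20 CPM, a fold of 1.004 with a 95% interval from 0.850 to 1.19. The sign of both estimates turned in some alternatives. For the counts of Cideb, Abhd5 and Plin3 the unadjusted intervals leave room only for differences under 1.5-fold, and for those of Pnpla2 for slightly more. Abhd5, Plin3 and Pnpla2 have several coding transcripts, so these intervals may not hold for all transcripts of those genes. The same limit applies to the differences of Plin4 and Plin5 (2 coding transcripts each) and Cidec (4).

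G0s2 encodes a small protein that binds ATGL and blocks it, and that liver makes in response to lipid load and fasting. G0s2 (ENSMUSG00000009633; chromosome 1, 193272161 to 193273217, minus strand; 1 coding transcript) lies wholly inside Lamb3, a gene of the opposite strand at 4.32 ± 1.22 and 2.65 ± 1.77 CPM. Whether counting used strand is not stated, so reads of the overlapping genes may not be told apart. Its levels were 57.8, 121, 68.2 and 62.6 CPM in control replicates 1 to 4. In POLR2G replicates 1, 3 and 4 and the unnumbered library they were 36.2, 49.6, 20.3 and 53.3 CPM. The groups did not overlap: the highest POLR2G library, with 890 counts, was below the lowest control, with 1023. GFP control replicate 2 stood far above the other controls, and POLR2G replicate 4 was the lowest library of all. The means were 77.4 ± 29.3 and 39.9 ± 14.9 CPM (n = 4 each), a log2 fold change of −0.96 (SE 0.319, 95% interval −1.68 to −0.24). Its edgeR p was 0.0143 and its adjusted p 0.453, with an exact permutation p of 0.0286. Without GFP control replicate 2 the log2 fold change was −0.66 (edgeR adjusted p = 0.603), and without POLR2G replicate 4 it was −0.74. DESeq2 gave an adjusted p of 0.0857 with all libraries. With each library left out in turn, DESeq2 called G0s2 only without the unnumbered POLR2G library (adjusted p = 0.0345). The other DESeq2 fits gave adjusted p from 0.0524, without GFP control replicate 1, to 0.437, without GFP control replicate 2.

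**Figure D2:**
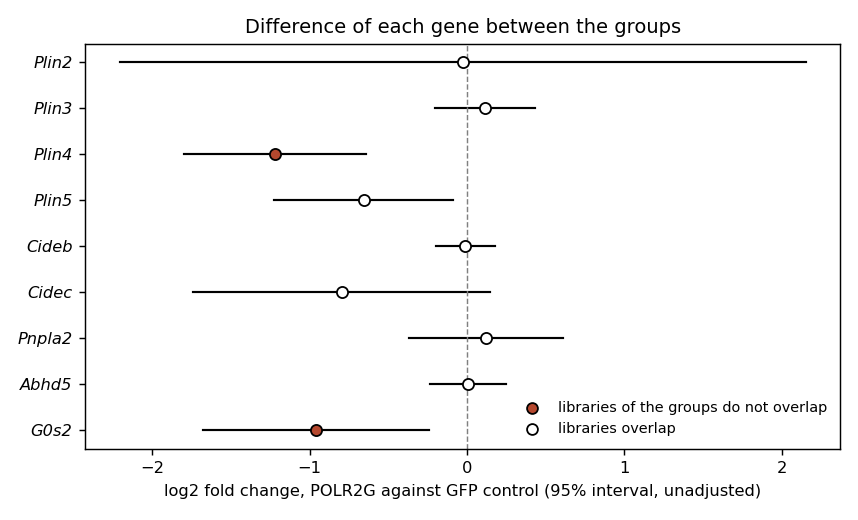
Log2 fold change of POLR2G against GFP control (x axis) for each of the 9 tested genes, with its 95% interval from the edgeR fit, not adjusted for the number of genes. Filled points mark the genes whose libraries do not overlap between the groups, Plin4 at −1.22 and G0s2 at −0.96.

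Of the 9 tested genes 6 had a lower mean in POLR2G and 3 a higher mean, with a median log2 fold change of −0.03, against 50.7% lower and a median of −0.003 over all genes tested. Unadjusted p under 0.05 was reached by 3 of them, Plin4, G0s2 and Plin5, all lower, where edgeR reached it with a lower mean in 4.1% of all genes and in either direction in 8.3%. Groups that did not overlap were found for 2 of the 9, both lower, against 2.68% of all genes in that direction and 5.51% in either. The point estimates were uneven: 4 lay between −0.66 and −1.22, and the other 5 between −0.03 and 0.12. Their 95% intervals do not divide the genes so sharply, since that of Cidec reached 0.15 and that of Plin2 ran from −2.21 to 2.15. The libraries that were low were also not the same from gene to gene. Among POLR2G libraries the lowest was the unnumbered one for Plin4, replicate 1 for Plin5 and replicate 4 for both Cidec and G0s2. Among controls the highest was replicate 3 for Plin4, replicate 2 for Plin5 and G0s2, and replicate 1 for Cidec. In these bulk samples fewer cells of a type and less RNA per cell cannot be told apart.

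**Figure D3:**
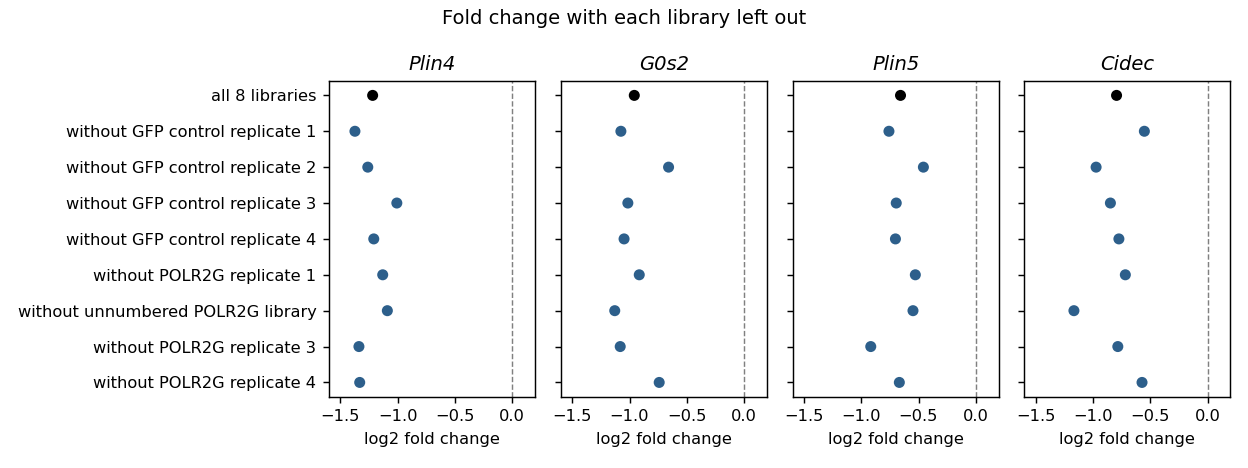
Log2 fold change (x axis) of the 4 genes with the lowest estimates, with all 8 libraries (black) and with each library left out (blue, 1 row each). All estimates stay below 0. Plin4 ranges from −1.37 to −1.01 and G0s2 from −1.13 to −0.66.

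The balance between lipase, coactivator and inhibitor can be read as ratios within a library, which do not depend on scaling. The ratio of G0s2 to Pnpla2 counts was 2.72, 5.20, 1.74 and 1.93 in control replicates 1 to 4, and 1.37, 1.42 and 0.507 in POLR2G replicates 1, 3 and 4, with 2.15 in the unnumbered library. The unnumbered library lay within the control range, and the other POLR2G libraries were below it. On the log2 scale the mean ratio was 1.39 ± 0.711 in the controls and 0.27 ± 0.881 in the POLR2G libraries, a difference of −1.12 (exact permutation p = 0.0857, adjusted over 6 ratios 0.257). G0s2 to Abhd5 differed by −0.99 (exact permutation p = 0.0571, adjusted 0.257) and Abhd5 to Pnpla2 by −0.13 (exact permutation p = 0.714, adjusted 0.857). Cidec to Cideb differed by −0.79, Plin2 to Pnpla2 by −0.06 and Plin5 to Plin2 by −0.76, with adjusted exact permutation p from 0.286 to 0.943. The ratios with Plin2 rest on a gene with 0 counts in GFP control replicate 1. Without that library Plin5 to Plin2 differed by 0.04 and Plin2 to Pnpla2 by −0.83. With all 8 libraries, a prior count of 0.5 turned the difference of Plin2 to Pnpla2 from −0.06 to 0.26. None of the 6 ratios passed. A difference of a ratio compares the change of its genes and not their levels, since the counts were not divided by transcript length.

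Other proteins of the droplet showed no common direction. Of 40 such genes 38 were in the table and 34 were tested, and none passed (edgeR). A lower mean was found in 21 and a higher mean in 13 (median log2 fold change −0.05), against 50.7% lower over all genes tested. The smallest p belonged to Mettl7a1, a methyltransferase of the endoplasmic reticulum and droplets, at 428 ± 8.78 CPM in the controls and 537 ± 27.8 CPM with POLR2G. Its log2 fold change was 0.33 (SE 0.0622, edgeR adjusted p = 0.164). Next was Ubxn8 (−0.21, SE 0.0699), at 33.8 ± 1.85 and 29.3 ± 1.23 CPM. For both Mettl7a1 and Ubxn8 the libraries of the groups did not overlap, as in 5.51% of all genes. DESeq2, which called 1.32% of all genes, called Mettl7a1 (adjusted p = 3.50e-06) and no other of the 34. Hilpda, which encodes the other small inhibitor of ATGL and was named after its values were seen, measured 2.68 ± 0.872 and 1.68 ± 0.343 CPM, with overlapping groups (log2 fold change −0.67, SE 0.313, edgeR adjusted p = 0.617). Plin1, the coat protein of adipocytes, had 2 to 8 counts in the controls and 0 to 3 in the POLR2G libraries and was not tested.

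Of 39 neutral lipid hydrolases and partners beside the 10 genes, 32 were in the table and 22 were tested, and none passed (edgeR). A lower mean was found in 9 and a higher mean in 13, with a median of 0.01. Hilpda is counted here as well as among the droplet proteins. Endothelial lipase, Lipg, was at 45.5 ± 5.83 CPM in the controls and 26.3 ± 4.42 CPM with POLR2G, a log2 fold change of −0.79 (SE 0.136, edgeR adjusted p = 0.131). The carboxylesterase Ces1g was at 245 ± 32.3 and 372 ± 27.4 CPM (0.61, SE 0.105, edgeR adjusted p = 0.132). In both cases the libraries of the groups did not overlap, as in 5.51% of all genes, and DESeq2, which called 1.32% of all genes, called both (adjusted p = 1.23e-04 and 1.39e-05). Ces1g belongs to a cluster of closely similar genes, and whether reads were split among them was not tested, so its value is uncertain. Hormone-sensitive lipase, Lipe, which acts after ATGL, measured 1.604 ± 0.514 and 1.597 ± 1.30 CPM, and monoglyceride lipase, Mgll, the last enzyme of the pathway, 272 ± 46.0 and 219 ± 21.3 CPM (log2 fold change −0.31, SE 0.126, edgeR adjusted p = 0.539).

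Of 39 transcription factors and signalling genes known to act on droplet genes, 33 were tested and none passed with edgeR or DESeq2 when all 8 libraries were used. The median was 0.03, with 16 lower and 17 higher, and 5 of the 33 reached an unadjusted p under 0.05, 4 of them lower, where edgeR reached it in 8.3% of all genes and with a lower mean in 4.1%. In 2 of the 33, both lower, the groups did not overlap, against 2.68% of all genes in that direction and 5.51% in either. Among them was the coactivator gene Ppargc1a, which had the smallest p of the list (19.1 ± 2.65 and 13.7 ± 1.81 CPM, log2 fold change −0.48, SE 0.134, edgeR adjusted p = 0.360). It was followed by Cebpa, a hepatocyte and adipocyte factor (46.4 ± 12.5 and 76.0 ± 18.8 CPM, 0.71, SE 0.213, edgeR adjusted p = 0.388), which DESeq2 called without GFP control replicate 2 and without POLR2G replicate 4. Ppara itself measured 178 ± 17.6 and 160 ± 29.8 CPM with overlapping groups (−0.15, SE 0.132, edgeR adjusted p = 0.825).

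**Figure D4:**
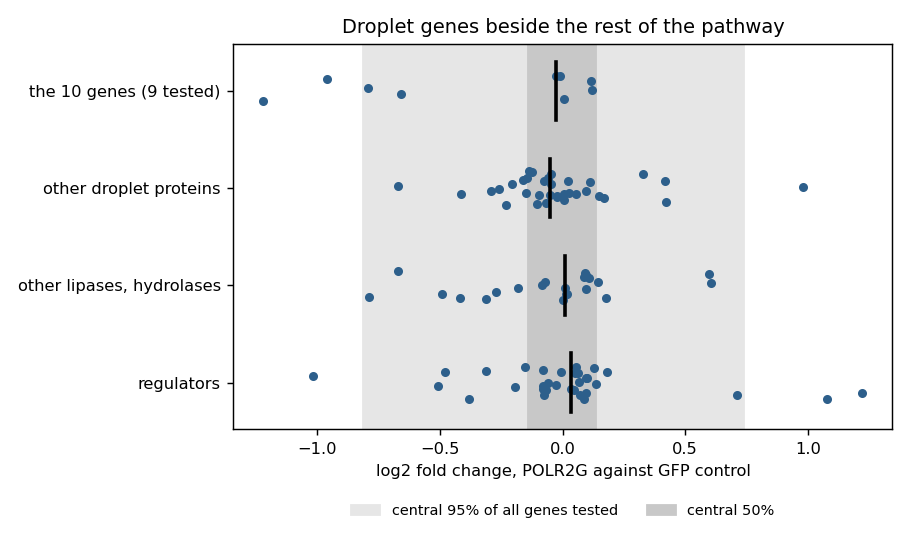
Log2 fold change of POLR2G against GFP control (x axis) for the tested genes of 4 lists (rows; each point is a gene, vertical position within a row is random, black bars are medians). Grey bands hold the central 95% (−0.81 to 0.74) and 50% (−0.14 to 0.14) of all 10390 genes. Plin4 and G0s2 lie left of the wider band, as does Esrrg of the regulators (−1.02). Hspa8 of the droplet proteins (0.98) and the regulators Egr1 (1.08) and Sirt1 (1.22) lie right of it.

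Because Plin4, Cidec and Cidea are also genes of fat cells, adipocyte markers were read in the same libraries. The 8 markers summed to 13.2 to 16.5 CPM in the control and 12.5 to 22.2 CPM in the POLR2G libraries, and none of the 3 tested passed, with 1, Adrb3, higher at an unadjusted edgeR p under 0.05. That sum was carried by Adrb3, at 6.49 CPM on average in the controls and 10.1 CPM in the POLR2G libraries, and by Fabp4, at 6.42 and 5.31 CPM. The scarcer markers were not uniform. Lower POLR2G means were found for Cfd, at 0.336 and 0.0142 CPM (at most 11 counts), and Plin1, at 0.276 and 0.0547 CPM (at most 8 counts), both below the filter. Lipe was nearly equal, at 1.604 and 1.597 CPM. Lep and Retn were at 0 in all 8 libraries, and Adipoq was at 0 in the controls with at most 1 count in a POLR2G library. The part of these markers in the lower means of Plin4 and Cidec was not tested. Stellate cells, the liver's other lipid-storing cells, were read from 9 markers that summed to 121 to 224 and 137 to 207 CPM, with 0 of 8 tested past the threshold. Pdgfrb was at 0 throughout. Macrophage markers (8 genes) summed to 205 to 319 and 226 to 435 CPM, sinusoidal endothelial markers (5 in the table) to 96.0 to 129 and 103 to 129 CPM (Lyve1 at 12.6 and 6.99 CPM on average, with an unadjusted edgeR p under 0.05 and an adjusted p of 0.444), and cholangiocyte markers (5 genes) to 5.52 to 11.7 and 6.52 to 10.8 CPM. Neutrophil markers (4 genes) were below 1 CPM in every library, and Ucp1, the marker of brown fat beside Cidea, had at most 3 counts. No list differed in its sum beyond the spread (exact permutation p from 0.114 to 1).

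For each tested gene the most similar profiles over the 8 libraries were sought among 8484 named genes whose log2 CPM averaged 1 or more, by Pearson correlation of log2 CPM, as a description. Plin4 was most like Zfp39 (0.98) and Ppargc1a (0.96), Plin5 like Cmtm4 (0.96) and Esco1 (0.93), Plin3 like Fn3krp and Pan2 (both 0.99), and Plin2 like Clec1a (0.97) and Arhgap31 (0.96). G0s2 was most like Efnb1 and Epb41l5 (both 0.94), Cidec like Smyd4 (0.97) and Chmp1b (0.95), Cideb like Tuba4a (0.98) and Pex16 (0.97), Pnpla2 like Mug2 (0.97) and Zfp652 (0.96), and Abhd5 like Cog6 (0.98) and Actr10 (0.96). No gene appeared for more than 1 of the 9, and none of the 9 was among the leading genes of another. All points share the same 8 libraries, and the best of so many profiles over so few libraries will be high. These correlations also hold the difference between the groups. With group means removed, Plin4 with Ppargc1a fell to 0.87, and G0s2 with Efnb1 and Epb41l5 to 0.89 and 0.88. Other pairs rose slightly, such as Cidec with Chmp1b, to 0.96.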

How the data were processed

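Poly-A selected RNA-seq libraries of mouse liver, strand-specific per the labels' protocols, were compared, 4 POLR2G against 4 GFP control. The authors deposited 1 table of estimated counts per gene, as whole numbers and not normalized. The submitters' processing notes name Salmon 1.2.1, GRCm38 and mm10, with no role for the builds. Annotation, rounding, the use of strand in counting and how transcripts were combined are not stated in those sources. Symbols from GENCODE M21 were found for 20817 of 20894 genes, including all 10 sought. Coordinates are GENCODE M21 on GRCm38, counted from 1. Columns were assigned by library name. The column without a listed number was used as a POLR2G library with no replicate number. No pair within a group was a duplicate: chi-square divided by its degrees of freedom was at least 13.7.

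The test was edgeR 4.0.16 (R 4.3.3): TMM scaling, filterByExpr (minimum count 10, minimum total 15), group as the only term, quasi-likelihood F test, Benjamini-Hochberg over 10390 genes, threshold 0.05, two-sided. SE is the fold's size divided by the square root of F. Exact permutation tests used all 70 arrangements of log2 CPM (prior count 2). Alternatives were DESeq2 1.42.0, limma-voom (limma 3.58.1), scaling by RLE, by upper quartile or by library totals, no or a stricter filter (1 CPM in 4 libraries), Polr2g left out, a replicate block and each library left out. The genes and lists were chosen with earlier results of these data known. Named beside the 10 genes are, in each list, those past the threshold or otherwise the 2 with the smallest p, and the 2 most similar profiles. Hilpda, Mgll, Lipe, Plin1 and Ppara were added for their roles, and Ces1e and single marker genes as exceptions, after their values were seen. On data simulated for this comparison with 10390 genes, the share recovered by edgeR was 36% for 1.5-fold changes, 58% for 2-fold, 86% for 4-fold and 100% for 8-fold, and 5 of 145 calls were false. For DESeq2 the shares were 38%, 68%, 88% and 100%, and 15 of 162 calls were false. The simulation changed 50 genes at each fold and gave every gene the spread typical of its expression level. With edgeR it held 145 calls against 4 in the real data, and more calls make an adjusted threshold easier to pass. The shares may therefore overstate what could be recovered here.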

Additional observations from a re-analysis of the deposited data

Results flagged for a closer look

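In 19 sets of 4 libraries (the 10 genes in 2 groups, without the set of Cidea values that are all 0), 2 held a library whose gap to the nearest other passed the 95% critical value of Dixon's test, and chance gives about 1 in 20. G0s2 at 121 CPM in GFP control replicate 2 stood apart from the other controls by a gap of 0.835 of the range. With that library left out the G0s2 log2 fold change was −0.66 (edgeR adjusted p = 0.603). Cidea at 0.113 CPM in GFP control replicate 1 stood apart because the other controls were at 0, and it rests on 2 counts.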

How the results depend on the processing

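The direction of Plin3, Plin4, Plin5, Cidec and G0s2 held in each of 17 alternative settings, while Plin2, Cideb, Pnpla2 and Abhd5, near 0, took both signs. Plin4 ranged from −1.37 to −1.01 and passed in 1 alternative, DESeq2 (−1.22, adjusted p = 0.00148), with adjusted p up to 0.488 in the others. G0s2 ranged from −1.13 to −0.66 (adjusted p from 0.0857 to 0.744). The 4 genes called of all tested became 1 with library totals alone, 130 with DESeq2 and 2 without Polr2g in the table, and ranged from 1 to 6 with each library left out. DESeq2 called 1 of the 10 genes, 1 other droplet protein and 2 other hydrolases, where edgeR called 0 of each. The cause of the gap between the tools was not tested. With DESeq2 and each library left out, a setting chosen after seeing the data, 82 (without POLR2G replicate 4), 96 (POLR2G 1), 103 (GFP 4), 112 (GFP 2), 117 (unnumbered), 126 (POLR2G 3), 157 (GFP 3) and 180 (GFP 1) genes in all and 1 to 2 of the 10 were called. In the lists these fits added Cebpa (without GFP 2 or POLR2G 4) and Ces1e and Mgll (both without GFP 3) to Mettl7a1, Lipg and Ces1g, which were called in all 8. The replicate block covered only the 6 libraries whose numbers both groups share. Same-numbered libraries deviated together with correlations of 0.109, 0.00458 and 0.0266 for replicates 1, 3 and 4. Both replicate 1 libraries and POLR2G replicate 4 correlated best with the library of their own number, and the others did not. So few pairs cannot show whether the numbers stand for a pairing. With the replicate block 2 genes were called and 0 of the 10, against 1 and 0 in the same 6 libraries without it, a fit also added after seeing the data. Fitting genes of 1 coding transcript alone, added likewise, gave G0s2 −0.96 (edgeR adjusted p = 0.265) and called 3 genes. Plin4, Plin5 and Cidec have more coding transcripts and were not in that fit. Depth limits Plin2, Cidec and Cidea most, at most 30, 62 and 2 counts in a library.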

Other observations

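Plin4 and Plin5 sit next to each other on chromosome 17, and Lrg1, an acute phase glycoprotein gene, lies 2081 bases from Plin5 on the same strand. Lrg1 did not share the lower means of the pair: it measured 250 ± 40.9 CPM in the control and 319 ± 75.7 CPM in the POLR2G libraries (n = 4 each, log2 fold change 0.35, SE 0.170, edgeR adjusted p = 0.639). Sema6b, farther along that strand, had 0 to 15 counts and was not tested. Plin3 lies on the same chromosome and strand, and its mean was not lower either (log2 fold change 0.12).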
